A study of Danio rerio with 12 samples.

Results

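The mitochondrial ribosomal protein genes were compared between the brains of adult zebrafish with a mutated glucocorticoid receptor (GR) and those of wild-type siblings. The group holds every gene whose zebrafish symbol begins with *mrpl* or *mrps* followed by a digit, case ignored. It has 75 members, 47 *mrpl* and 28 *mrps* genes, of 32520 gene IDs in each table. All 75 reached the minimum for testing, 10 or more normalised counts in 6 or more of the 12 libraries, so that no member was left out. Normalised counts are reads per gene divided by a size factor of the library. They are not divided by gene length, and levels are therefore not compared between genes.

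The brains came from 6 GR-mutant males and 6 wild-type male siblings aged 22 months, dissected with olfactory bulbs and pituitary in place, and each brain gave 1 poly(A)-selected library. GR-mutant fish (gr s357/s357) are homozygous for a missense allele of *nr3c1*, the GR gene, in every cell, and wild-type fish (gr +/+) carry no copy of it. The adults came from in-crosses of heterozygotes and were untreated, and the genotypes lived in separate tanks, so that tank and genotype cannot be told apart. Reads assigned to genes numbered 24809137 to 36313866 in the GR-mutant libraries and 24407683 to 37548901 in the wild-type libraries. A member had 90 to 1889 of these reads in a library.

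Mitochondria carry their own ribosome, the mitoribosome, which makes the few proteins that the mitochondrial genome encodes, all of them core subunits of the respiratory chain and ATP synthase. Its RNAs come from the mitochondrial genome, whereas all of its proteins are encoded in the nucleus, made in the cytosol and imported. The *mrps* genes encode proteins of the small subunit, which reads the mRNA, and the *mrpl* genes proteins of the large subunit, which forms the peptide bond. In human, the products of MRPS18A and MRPS30 sit in the large subunit despite their names. Some of the proteins descend from bacterial ribosomal proteins, and others were added during the evolution of mitochondria. Neurons depend on oxidative phosphorylation, and the brain is among the tissues affected in human diseases of mitochondrial translation.

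As a group, these genes differed little between the genotypes. With limma on log2(normalised count + 1) and Benjamini-Hochberg adjustment over all 20114 genes tested, 8 of 75 members changed (10.7%), 4 higher and 4 lower in GR-mutant brains, against 17.5% of all genes. Of all genes tested, 7.59% were higher and 9.92% lower. Of the 9353 genes whose mean count lay within the range of the members, 134 to 1373 normalised counts, 19% changed. The members' share thus lay below the background, and the 4 and 4 are single genes in a group of which most did not pass the test. The split depended on the scaling between libraries. When every library was scaled to the same total, 8 members were higher and 1 lower, since *mrpl11*, *mrpl33* and *mrpl41* no longer passed and *mrpl1*, *mrpl44*, *mrps15* and *mrps34* did.

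The size of the differences was also small. The median log2 fold change, GR-mutant minus wild-type, was -0.03 over the members and 0.01 over all genes tested, and the median absolute log2 fold change was 0.09 and 0.18 for the same sets. Over the genes in the range of the members' mean counts it was 0.16. The members also varied less within a genotype than those genes. Their median SD of log2 values was 0.12 in GR-mutant and 0.11 in wild-type brains, against 0.16 and 0.18. A log2 fold change below 0 was found in 50 of 75 members (66.7%), against 48.1% of all genes. At equal totals, 27 of 75 members were below 0, with medians of 0.05 over the members and 0.09 over all genes. Only 1 member, *mrps12*, reached an absolute log2 fold change of 0.58, which 12.3% of all genes did. Between libraries of 1 genotype the members varied by a median coefficient of variation of 8.12% in GR-mutant brains and 8.0% in wild-type brains.

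**Figure D1:**
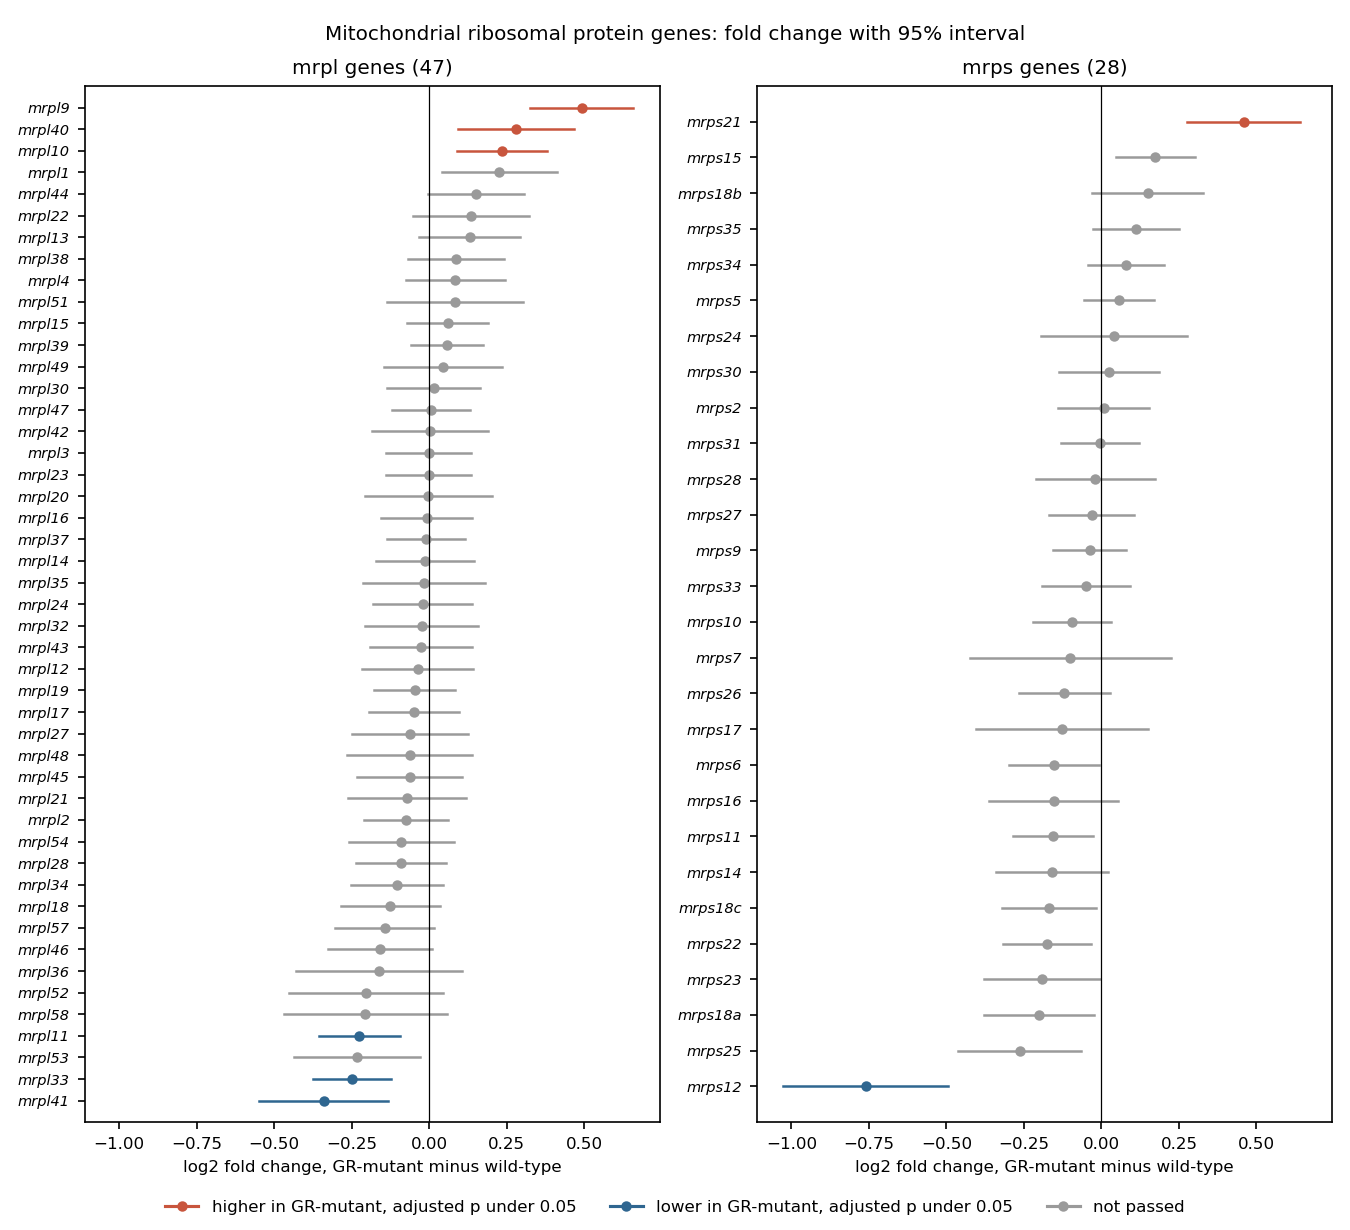
Log2 fold change, GR-mutant minus wild-type, of the 47 *mrpl* genes (left) and the 28 *mrps* genes (right), with 95% intervals from limma (n = 6 libraries per genotype). Red marks the 4 genes higher and blue the 4 genes lower in GR-mutant brains at an adjusted p under 0.05, and the other 67 genes (grey) lie between -0.26 and 0.23.

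Among the *mrps* genes, 1 was higher and 1 lower of 28, and these had the widest differences in the small subunit, with opposite signs. *mrps12* encodes a protein of the decoding centre, descended from bacterial S12, where mRNA and tRNA are matched. It had 483, 484, 523, 526, 527 and 599 normalised counts in GR-mutant brains, against 636, 736, 896, 991, 1073 and 1085 in wild-type brains. Every GR-mutant library lay below every wild-type library, and the wild-type libraries were spread more widely. In order of replicate number the counts were 527, 526, 483, 523, 484 and 599 in GR-mutant brains. In wild-type brains they were 636, 736, 896, 1085, 991 and 1073 in that order. The log2 fold change of *mrps12* was -0.76 (SE 0.12, limma adjusted p = 0.00114).

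*mrps21*, the homolog of bacterial S21 of the small subunit, moved the other way. It had 545, 629, 663, 669, 717 and 731 normalised counts in GR-mutant brains, against 404, 465, 479, 482, 505 and 537 in wild-type brains. The genotypes did not overlap, and the log2 fold change was 0.46 (SE 0.08, limma adjusted p = 0.00265). Within a library, the ratio of *mrps21* to *mrps12* counts was 1.13 to 1.48 in GR-mutant brains and 0.41 to 0.75 in wild-type brains, a ratio that no scaling between libraries can alter. This pair was picked after the values were seen. Since each gene alone separated the genotypes, in opposite directions, their ratio had to separate them too and is no further evidence.

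Among the 47 *mrpl* genes, 3 were higher and 3 lower. The widest difference was in *mrpl9*, whose bacterial homolog L9 sits at the base of the L1 stalk, the arm that moves the spent tRNA out. *mrpl9* had 617, 624, 626, 630, 667 and 714 normalised counts in GR-mutant brains, against 414, 426, 428, 443, 505 and 550 in wild-type brains. No wild-type library reached the lowest GR-mutant library, and the log2 fold change was 0.49 (SE 0.08, limma adjusted p = 0.000947).

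*mrpl10* and *mrpl11* encode parts of the flexible stalk region that recruits translation factors to the large subunit. *mrpl10*, whose protein anchors the stalk, had 369, 378, 381, 415, 416 and 447 normalised counts in GR-mutant brains, against 313, 333, 341, 344, 353 and 357 in wild-type brains. The genotypes did not overlap, with a log2 fold change of 0.24 (SE 0.07, limma adjusted p = 0.0292). Without wild-type replicate 1 the adjusted p was 0.0559, and over the 12 alternatives it ran from 0.00679 to 0.14.

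*mrpl11*, whose protein forms the stalk base, was lower. It had 664, 666, 698, 704, 708 and 786 normalised counts in GR-mutant brains, against 738, 787, 831, 841, 858 and 886 in wild-type brains. The genotypes overlapped in 1 GR-mutant library, and 5 of 6 lay below the lowest wild-type value (log2 fold change -0.22, SE 0.06, limma adjusted p = 0.0217). The ratio of *mrpl10* to *mrpl11* counts within a library was 0.54 to 0.59 in GR-mutant brains and 0.38 to 0.46 in wild-type brains, without overlap. Neither library size nor gene length enters the comparison of this ratio between genotypes, and it too was picked after the values were seen. *mrpl12*, the third stalk gene, had 946 to 1131 normalised counts in GR-mutant brains and 861 to 1188 in wild-type brains (log2 fold change -0.04, adjusted p = 0.802). The ratio of *mrpl10* to *mrpl12* was 0.36 to 0.42 in GR-mutant brains and 0.29 to 0.38 in wild-type brains. That of *mrpl11* to *mrpl12* was 0.65 to 0.72 in GR-mutant brains and 0.67 to 0.97 in wild-type brains. Both of these ratios overlapped between the genotypes.

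**Figure D2:**
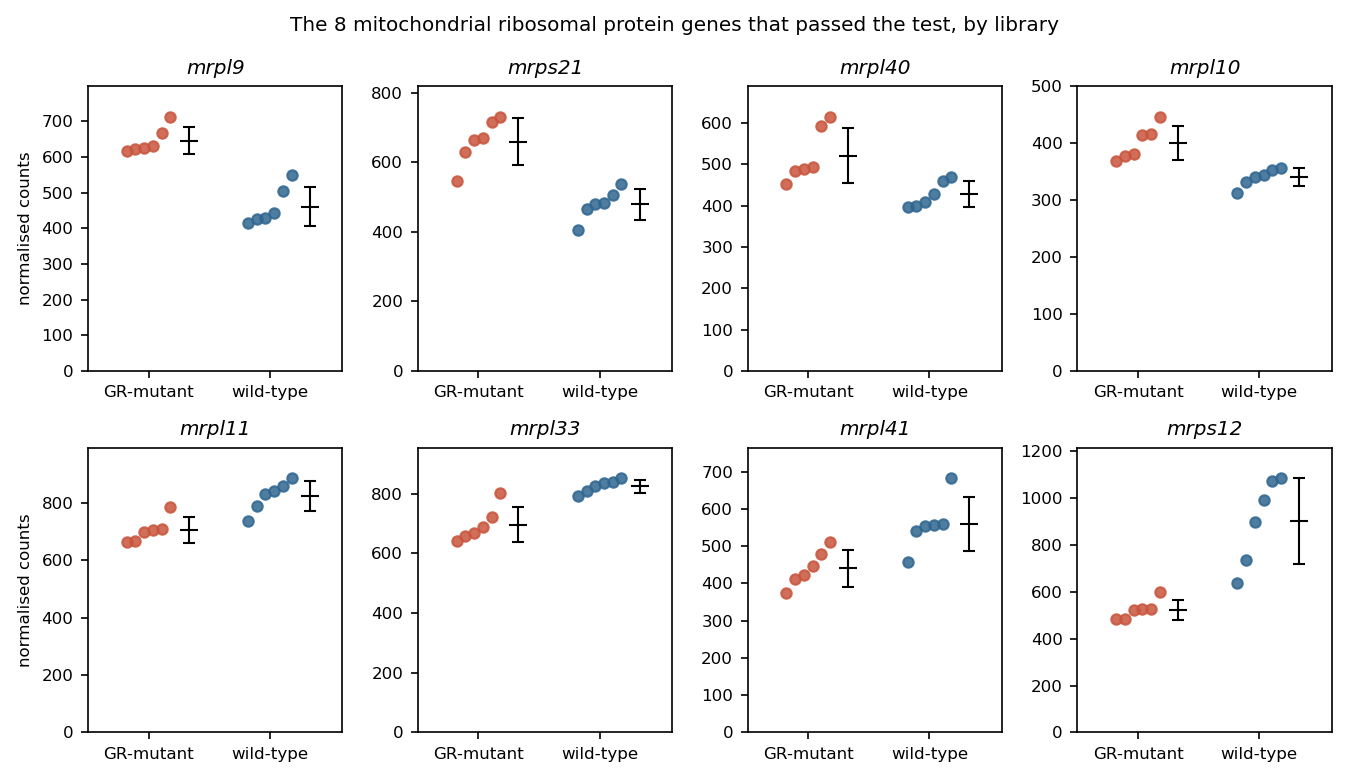
Normalised counts (linear axis from 0) of the 8 mitochondrial ribosomal protein genes that passed the test, 1 point per library, GR-mutant in red and wild-type in blue, with the mean and SD of each genotype (n = 6) beside the points. The genotypes do not overlap for *mrpl9*, *mrps21*, *mrpl10* and *mrps12*, and overlap for *mrpl40*, *mrpl11*, *mrpl33* and *mrpl41*.

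*mrpl33* encodes a small protein of the large subunit, the homolog of bacterial L33. It had 641, 658, 669, 687, 722 and 802 normalised counts in GR-mutant brains, against 792, 810, 825, 836, 838 and 853 in wild-type brains. GR-mutant replicate 2, at 802, was the only library of its genotype inside the wild-type range (log2 fold change -0.25, SE 0.06, limma adjusted p = 0.0114).

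The other changed genes encode proteins that bacteria lack. *mrpl40* had 452, 485, 487, 493, 594 and 615 normalised counts in GR-mutant brains, against 396, 399, 408, 429, 460 and 469 in wild-type brains. The lowest GR-mutant library lay within the wild-type range and the others above it (log2 fold change 0.28, SE 0.09, limma adjusted p = 0.0395). With no filter on low genes its adjusted p was 0.0505, over a range of 0.00675 to 0.0898 in the 12 alternatives. *mrpl41* had 374, 412, 423, 446, 479 and 513 normalised counts in GR-mutant brains, against 459, 542, 555, 556, 561 and 683 in wild-type brains. Here 4 of 6 GR-mutant libraries lay below the lowest wild-type library (log2 fold change -0.34, SE 0.10, limma adjusted p = 0.0282).

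The genotypes did not overlap in 4 of 75 members (5.33%), against 8.27% of all genes tested. By origin, 46 members have a bacterial counterpart, of which 3 were higher and 3 lower (median log2 fold change -0.03), and 29 are specific to mitochondria, of which 1 was higher and 1 lower (median -0.03). By symbol, the medians were -0.07 for the *mrps* genes and -0.02 for the *mrpl* genes.

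The remaining 67 members did not pass. For 52 of them the 95% interval of the fold change lay within 1.25-fold in either direction, and for 15 it reached further. An interval that excluded 0 before adjustment was found in 10 of the 67, 8 lower and 2 higher, and an unadjusted p under 0.05 in 18 of 75 members (24%), against 32.8% of all genes tested.

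The 5 members nearest to the threshold came from both subunits. *mrps15*, a homolog of bacterial S15, had 759 to 889 normalised counts (median 820) in GR-mutant brains, against 666 to 805 (median 710) in wild-type brains (log2 fold change 0.17, adjusted p = 0.0603). *mrpl1*, which belongs to the L1 stalk, had 334 to 436 (median 380) in GR-mutant brains and 287 to 378 (median 318) in wild-type brains (0.23, adjusted p = 0.0846). These were the only members that failed the test with an interval above 0.

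The other 3 were on the lower side, again with overlapping genotypes. *mrps25*, specific to mitochondria, had 704 to 897 normalised counts (median 760) in GR-mutant brains and 760 to 1116 (median 950) in wild-type brains (log2 fold change -0.26, adjusted p = 0.0646). *mrps22*, also specific to mitochondria, had 527 to 660 (median 629) in GR-mutant brains and 636 to 753 (median 690) in wild-type brains (-0.18, adjusted p = 0.0825). *mrps11*, a homolog of bacterial S11, had 727 to 828 (median 774) in GR-mutant brains and 800 to 949 (median 870) in wild-type brains (-0.16, adjusted p = 0.0908). The gene beside it in the table, *mrpl46*, had a log2 fold change of -0.16 (adjusted p = 0.178).

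The 3 genes related to bacterial S18 had values on either side of 0. The log2 fold change was -0.20 for *mrps18a* (adjusted p = 0.107), 0.15 for *mrps18b* (0.233) and -0.17 for *mrps18c* (0.112), each by limma. None passed with all 12 libraries, and *mrps18a* passed when GR-mutant replicate 2 was left out (adjusted p = 0.0345), over a range of 0.0345 to 0.288 in the 12 alternatives.

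The 3 members with the most counts did not pass, and 1 of them, *mrpl51*, varied widely in wild-type brains (coefficient of variation 18.2%). *mrpl2*, of the peptide-bond-forming core, had 1242 to 1503 normalised counts in GR-mutant brains and 1261 to 1533 in wild-type brains (log2 fold change -0.07, SE 0.06). *mrpl51* had 1112 to 1339 in GR-mutant brains and 944 to 1434 in wild-type brains (0.08, SE 0.10), and *mrpl23* had 931 to 1146 in GR-mutant brains and 952 to 1156 in wild-type brains (-0.00, SE 0.06).

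Of those with the fewest counts, *mrpl58* and *mrpl52* had wider intervals than the 3 above. That of *mrpl53* was narrower than that of *mrpl51*. *mrpl58*, a hydrolase in the large subunit that frees peptides from stalled ribosomes, had 107 to 134 normalised counts in GR-mutant brains and 117 to 181 in wild-type brains (log2 fold change -0.21, 95% interval -0.47 to 0.06). *mrpl52* had 152 to 224 in GR-mutant brains and 172 to 243 in wild-type brains (-0.20, interval -0.45 to 0.05). *mrpl53* had 185 to 238 in GR-mutant brains and 220 to 286 in wild-type brains (-0.23, interval -0.43 to -0.03, adjusted p = 0.105).

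Across libraries the members shared part of their variation. Their summed counts were 41598 to 47736 (median 45175) in GR-mutant brains and 44507 to 48753 (median 45496) in wild-type brains, and these ranges overlapped over most of their length. GR-mutant replicate 3 held the lowest value of all 12 libraries for 24 members and GR-mutant replicate 5 for 15. Wild-type replicate 2 followed with 11. The same 3 libraries had the largest summed counts of the pituitary markers, 87473 in GR-mutant replicate 3, 42549 in GR-mutant replicate 5 and 46145 in wild-type replicate 2. The other GR-mutant libraries had 429 to 23124 and the other wild-type libraries 6838 to 27342. By the members' summed counts the match was not complete. GR-mutant replicate 1, with the fewest pituitary counts (429), had a members' sum of 44255, below the 44507 of wild-type replicate 2. This comparison was picked after the values were seen, and the part of pituitary tissue in the members' levels was not tested. The highest values fell in wild-type replicate 4 for 17 members, in wild-type replicate 7 for 16 and in GR-mutant replicate 6 for 14. Sets of members thus stood high or low together within both genotypes, as the map of members by library shows. The summed counts of the nuclear respiratory chain genes were also lowest in GR-mutant replicate 3 (268632) and highest in wild-type replicate 4 (324486). Those of the cytosolic ribosomal protein genes were lowest in GR-mutant replicate 1 (534098) and highest in wild-type replicate 4 (763501). The counts of lowest and highest libraries were not taken over all genes tested, so that it was not tested if this pattern is particular to the members.

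The summed *mrpl* counts over the summed *mrps* counts gave 1.56 to 1.59 (median 1.58) in GR-mutant brains and 1.49 to 1.56 (median 1.53) in wild-type brains. At full precision the ranges did not overlap. Without *mrps12* the ratio was 1.61 to 1.65 (median 1.623) in GR-mutant brains and 1.57 to 1.65 (median 1.596) in wild-type brains, and the genotypes overlapped. Without all 8 changed members they also overlapped, at 1.465 to 1.508 (median 1.480) in GR-mutant brains and 1.421 to 1.497 (median 1.433) in wild-type brains, with the higher median again in GR-mutant brains.

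**Figure D3:**
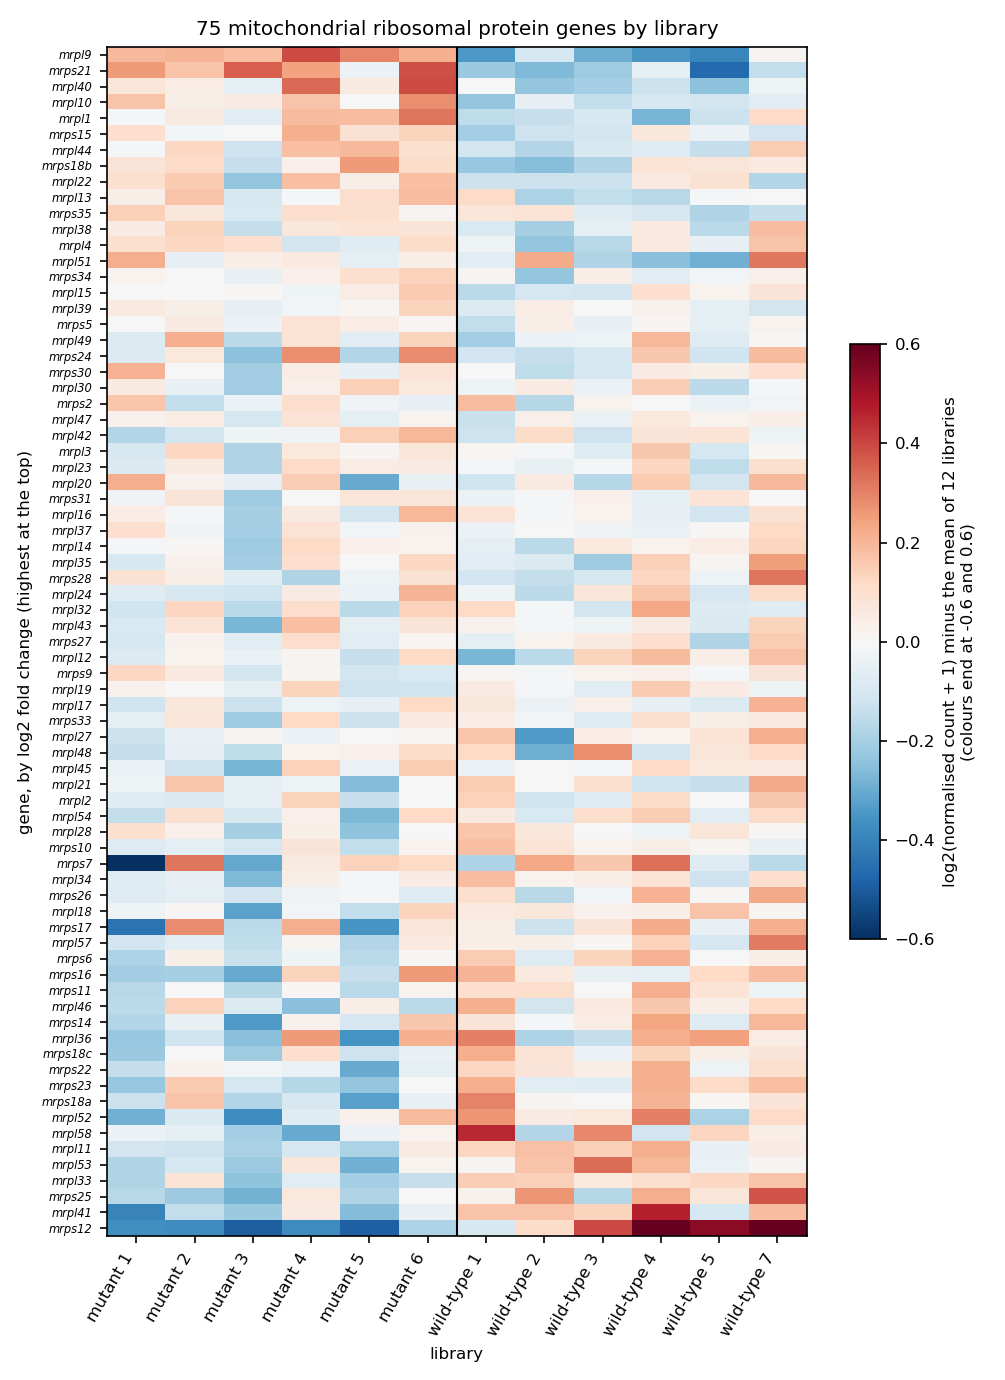
The 75 members (rows, ordered by log2 fold change) in the 12 libraries (columns, GR-mutant left of the line, wild-type right), as log2(normalised count + 1) minus the gene's mean over the 12 libraries, with colours ending at -0.6 and 0.6. *mrpl9* and *mrps21* in the top rows and *mrps12* in the bottom row separate the genotypes, while GR-mutant replicate 3 is blue across many of the middle rows.

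Position in the genome was described through the order of rows in the deposited tables, in which 96.5% of consecutive IDs with a chromosome share it. *mrps12* stands next to an ID with the symbol NPAS4, ENSDARG00000087753, and the RefSeq gene table of another assembly (GRCz12tu) also lists *npas4b* as the next gene. NPAS4 is a transcription factor induced by neuronal activity. This ID had 279 to 501 normalised counts in GR-mutant brains, against 633 to 1208 in wild-type brains (log2 fold change -1.18, SE 0.17, limma adjusted p = 0.000492). The wild-type library with the highest NPAS4 count, replicate 1 at 1208, had the lowest *mrps12* count of its genotype, 636. This single library was picked after the values were seen, and a shared pattern of both genes was not tested. Of the 9 neighbours of *mrps12* tested, up to 5 rows on either side, 1 was higher and 1, the NPAS4 ID, lower. Over all genes tested, 7.59% were higher and 9.92% lower, the shares to set beside this and the following counts of neighbours.

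*mrpl11* lies near the other NPAS4 ID, ENSDARG00000055752, which is 3 rows away and had 3195 to 7280 normalised counts in GR-mutant brains, against 8459 to 14672 in wild-type brains (log2 fold change -1.26, limma adjusted p = 0.00143). The NPAS4, EFEMP2 and FIBP symbols follow each other in the same order near both members. Of the 6 tested neighbours of *mrpl11*, 3 were lower, the gene between included, *tmem265* (log2 fold change -0.45, adjusted p = 0.00489).

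*mrpl11* is also one of the members on the chromosome of *nr3c1*, 117 rows from it. Among the 215 genes tested within 150 rows of *nr3c1*, 25.6% changed, 21 higher and 34 lower, against 17.5% of all genes tested. Within 300 rows, 30.7% of 424 genes changed, 50 higher and 80 lower. Alleles linked to gr s357 were inherited with it, and for *mrpl11* their part cannot be told apart from that of the mutation. The other member there, *mrpl18*, 279 rows away, had 381 to 522 normalised counts in GR-mutant brains and 482 to 536 in wild-type brains (log2 fold change -0.12, adjusted p = 0.264). *nr3c1* itself had 4670 to 4955 normalised counts in GR-mutant brains and 4107 to 4567 in wild-type brains (0.15, adjusted p = 0.0160), and since the allele is a missense one its level does not check the labels.

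*mrps21* had the most changed neighbours, 4 higher and 1 lower of 7 tested, against 17.5% of all genes tested that changed in either direction. The gene on 1 side, *ciarta*, a repressor of the circadian clock, had 308 to 600 normalised counts in GR-mutant brains, against 1086 to 2382 in wild-type brains (log2 fold change -2.05, SE 0.21, limma adjusted p = 2.07e-05). In both genotypes its counts fell from each replicate number to the next. What the numbers stand for is not stated, and the part of this order in the changes was not tested. On the other side CRABP2 (ENSDARG00000030449), a carrier of retinoic acid, was higher (0.98, adjusted p = 0.00208), and so was *rnf115b*, 4 rows away (1.58, adjusted p = 0.000152). *mrps21* was higher together with these and opposite to *ciarta*.

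*mrpl9* is 43 rows from *mrps21* in the same stretch. Of its 7 tested neighbours 0 passed by limma, edgeR or DESeq2, with 1 at an unadjusted p under 0.05, and *mrpl24*, 3 rows away, had a log2 fold change of -0.02. At equal totals 1 of the 7 was higher. Of the 30 genes tested between both members, 3 were higher and 3 lower. Around the other changed members, the numbers of neighbours that were higher and lower were 2 and 1 of 9 for *mrpl41*, 1 and 1 of 9 for *mrpl33*, 0 and 2 of 8 for *mrpl10* and 0 and 1 of 9 for *mrpl40*. The libraries were made with a directional kit, but the sources do not state if strand was used when STAR counted the reads. How reads of overlapping neighbours were handled was not checked. The part of neighbouring genes in any of these changes was not tested.

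The rest of the mitochondrial translation machinery was also mixed. Of 5 further mitoribosome proteins known under other symbols, *ptcd3*, a small-subunit protein, was higher (log2 fold change 0.18, adjusted p = 0.0345) and the others did not pass. That call ended without wild-type replicate 1 (adjusted p = 0.0585, over a range of 0.00521 to 0.085 in the 12 alternatives). *ptcd3* lies on the chromosome of *nr3c1*, 107 rows from it, and the limit given for *mrpl11* on linked alleles holds for it too. Of 19 translation factors, 1 was higher and 1 lower, namely *mtif2*, which starts translation, and *gfm2*, which splits the ribosome after termination. *gfm2* had 391 to 469 normalised counts in GR-mutant brains and 488 to 1535 in wild-type brains (log2 fold change -0.96, SE 0.25, limma adjusted p = 0.0173).

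Among 32 factors of mitoribosome assembly and rRNA modification, 3 were higher and 2 lower. *gtpbp10*, a GTPase that helps to assemble the large subunit, had 504 to 540 normalised counts in GR-mutant brains, against 371 to 431 in wild-type brains (log2 fold change 0.38, SE 0.06, limma adjusted p = 0.000633). *eral1*, which binds the rRNA of the small subunit, had 613 to 709 in GR-mutant brains, against 510 to 579 in wild-type brains (0.30, adjusted p = 0.00353). *mettl15*, which methylates that rRNA, had 203 to 231 in GR-mutant brains, against 245 to 323 in wild-type brains (-0.34, adjusted p = 0.0117). None of these 3 genes overlapped between the genotypes. Of 19 mitochondrial aminoacyl-tRNA synthetases and related enzymes, *hars2* was higher (0.17) and *nars2* lower (-0.41).

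Of 15 genes that copy, maintain or transcribe mitochondrial DNA, 3 were higher and 3 lower. That is 40%, the largest share among the 9 lists set beside the members, against 17.5% of all genes tested. *polg*, the DNA polymerase of mitochondria, had 583 to 730 normalised counts in GR-mutant brains and 726 to 975 in wild-type brains (log2 fold change -0.35, adjusted p = 0.0161). *supv3l1*, an RNA helicase, was higher (0.20, adjusted p = 0.0324), and *hsd17b10*, a part of mitochondrial RNase P, lower (-0.21, adjusted p = 0.0248). Of 12 regulators of mitochondrial biogenesis only *ppargc1b*, a coactivator, passed, with 3452 to 4326 in GR-mutant brains and 4245 to 8141 in wild-type brains (-0.71, adjusted p = 0.00509). *ppargc1b* lies 26 rows from *nr3c1*, where linked alleles and the mutation cannot be told apart.

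The products that the mitoribosome serves, and the other ribosome of the cell, were set beside the members. Of 93 nuclear genes of the respiratory chain and ATP synthase tested, 1 was higher and 7 lower (median log2 fold change -0.06), with *atp5meb* (-0.33) and *cox6b1* (-0.27) among the lower ones. Of the 13 genes of the mitochondrial genome, 0 passed by limma (median -0.16), 2 had an unadjusted p under 0.05, both lower, and edgeR called 0 and DESeq2 1. Of 80 cytosolic ribosomal protein genes tested, 13 were lower and 0 higher by limma (median -0.17), and 0 were higher by edgeR, by DESeq2 or at an unadjusted p under 0.05, while 79 lay below 0. At equal totals 1 of them was lower, the median was -0.09 and 75 lay below 0, and the respiratory chain genes then had 1 higher, 1 lower and a median of 0.02. The median of the members, -0.03, was nearer to that of all genes, 0.01. Without wild-type replicate 1, which had the largest share of counts from the mitochondrial genome (10.1%, against 6.60 to 7.22% in GR-mutant libraries and 6.07 to 7.81% in the other wild-type libraries), 4 respiratory chain genes and 3 cytosolic ribosomal protein genes passed.

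**Figure D4:**
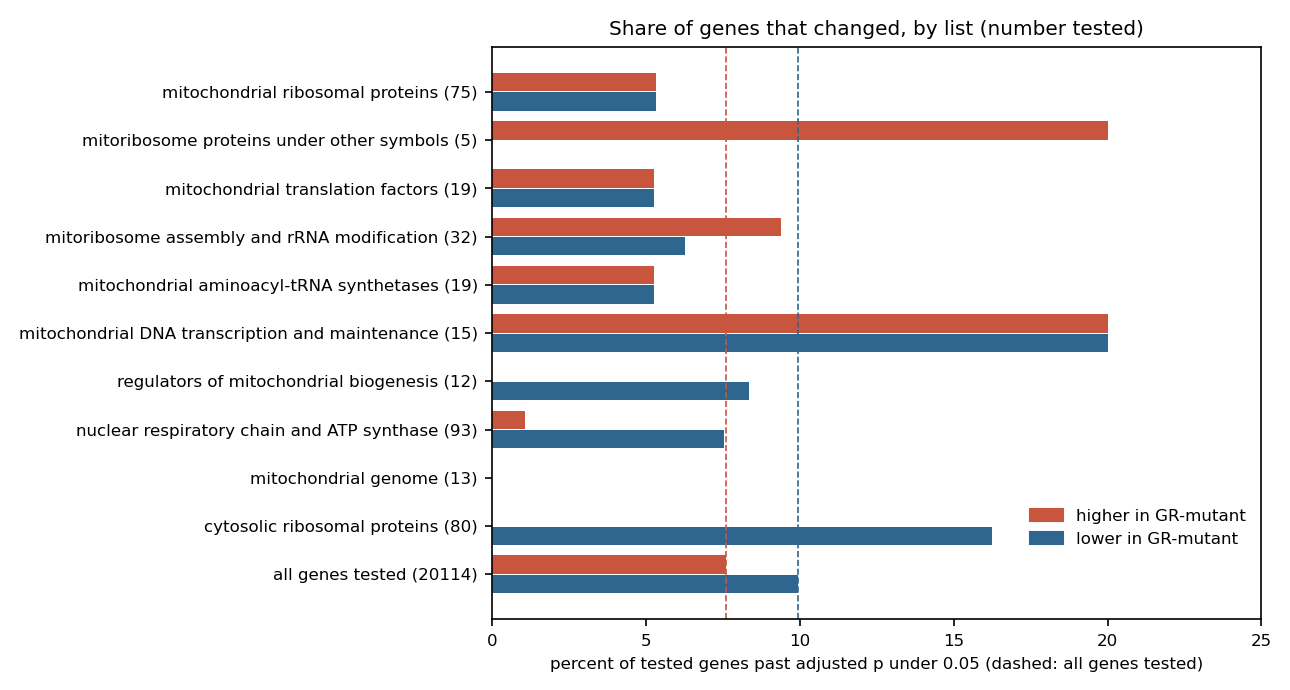
Percent of the tested genes of each list that were higher (red) or lower (blue) in GR-mutant brains at a limma adjusted p under 0.05, with the number tested in brackets and dashed lines at the shares over all genes, 7.59% and 9.92%. The 75 members reach 5.33% in each direction, both below the lines, and the cytosolic ribosomal protein genes have only lower members.

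In bulk tissue, fewer cells of a type and less RNA per cell cannot be told apart. Some markers were found for each of neurons, glia, endothelium, microglia, blood and pituitary, but *mpeg1.1*, *pecam1*, *hbba1* and *hbba2* matched no ID. Only 4 of 6 blood, 10 of 12 pituitary and 10 of 11 radial glia IDs reached the minimum for testing. The pituitary markers were very uneven between libraries, with sums of 429 to 87473 in GR-mutant brains and 6838 to 46145 in wild-type brains. Of 15 neuronal markers 2 were lower, *elavl4* (log2 fold change -0.23) and SLC17A6 (ENSDARG00000041150, -0.19), and the summed counts of the list were 317807 to 341152 in GR-mutant brains and 340844 to 367805 in wild-type brains. Of these markers 12 lay below 0 (median log2 fold change -0.09). At an unadjusted p under 0.05, 1 was higher and 5 lower, and by DESeq2 0 were higher and 5 lower. At equal totals 0 were higher and 1 lower, with a median of -0.01. Of 10 radial glia markers 2 were higher and 2 lower, with sums of 109435 to 129540 in GR-mutant brains and 128223 to 145411 in wild-type brains. Of 7 endothelial markers 3 were higher and 1, *kdrl*, lower, with sums of 3119 to 4719 in GR-mutant brains and 3191 to 3504 in wild-type brains. In the lists of oligodendrocytes (9), microglia (10), red blood cells (4) and pituitary (10), 1 gene each was higher, and of 8 proliferation genes 1 was lower. The 4 red blood cell markers all lay above 0 (median log2 fold change 0.73). For the pituitary markers the limma median was 0.40, with 4 below 0. By DESeq2 their median was 1.40, with 1 below 0, and 3 were higher and 0 lower. Of the 10 microglia markers, however, 7 lay below 0 (median log2 fold change -0.18). At an unadjusted p under 0.05, 1 of them was higher and 3 lower, and by DESeq2 1 was higher and 2 lower. Their sums were 17026 to 35822 in GR-mutant brains (median 22998) and 20619 to 36220 in wild-type brains (median 30229). No marker list had an ID at 0 in all libraries. The part of these differences in the changes of the members was not tested.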

How the data were processed

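Whole brains of 6 GR-mutant and 6 wild-type males aged 22 months were sequenced, 1 brain per library. Paired-end reads were trimmed and cleared of rRNA by the authors, who mapped the rest to GRCz11 and counted reads for each gene with STAR, and scaled these counts with the size factors of DESeq2. The deposited values are thus a signal, normalised counts. Trimmomatic (3.9), STAR, FastQC, MultiQC and DESeq2 are named in the submitters' processing notes, while the paper's methods give another version of Trimmomatic. The tables hold 32520 IDs each, and 29201 could be given a symbol. All values (100%) were whole multiples of the value of 1 read within 0.001, and these recovered reads served only for edgeR and DESeq2. Any 2 libraries had different reads in 24900 genes or more, so that none was counted as a duplicate.

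The members are all rows whose symbol matches the rule. Members and lists were chosen with earlier results of these data known. Values were fitted over the whole table with limma (3.58.1, R 4.3.3), log2(normalised count + 1), mean-variance trend, no block, on genes that reached 10 normalised counts in 6 or more libraries. Benjamini-Hochberg adjusted p-values under 0.05 passed. Fold changes are differences of mean log2(value + 1), GR-mutant minus wild-type, a scale that understates changes of low genes. The text names every member that passed, the next 5 by p, the 3 with the highest and the 3 with the lowest mean, members on the chromosome of *nr3c1*, *nr3c1*, and, from each further list, examples among the 3 with the smallest p. Others, such as relatives and neighbours of these genes, were chosen after their values were seen. The classes by origin follow the numbers in the symbols: *mrpl* up to 36 and *mrps* up to 21 count as having a bacterial counterpart, with *mrps24* and *mrpl47* added.

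As 12 alternatives, the fit was repeated with pseudocounts of 0.5 and 5, no filter, a mean of at least 100, upper-quartile scaling, equal totals, limma without trend, edgeR (4.0.16), DESeq2 (1.42.0), a replicate block, and fits without wild-type replicate 1 or GR-mutant replicate 2. The limma and edgeR fits were tested on simulated data. Chromosomes came from matching 17684 IDs by a symbol of their own to the RefSeq gene table (GRCz12tu), used for names and order only. Each library is 1 fish, so that p-values measure the spread between fish. The methylation and behaviour experiments were not analysed here.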

Additional observations from a re-analysis of the deposited data

Results flagged for a closer look

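In 9 of 210 groups of 6 libraries tested, 1 library stood apart from the others of its genotype by Dixon's criterion, which chance alone meets in about 1 in 20 groups, so that 9 is no more than chance would give. For *mrpl11*, GR-mutant replicate 6 was highest with 786 normalised counts, against 664 to 708 in the other GR-mutant libraries. GR-mutant replicate 3 was lowest for *mrpl38* (809, the others 925 to 981) and for *mrps31* (663, the others 757 to 813). Wild-type replicate 7 was highest for *mrpl44* (836, the others 666 to 714) and for *mrpl37* (854, the others 766 to 789), and wild-type replicate 5 for *mrpl18* (536, the others 482 to 499).

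Among the genes set beside the members, GR-mutant replicate 1 was highest for *mtif2* (787, the others 625 to 684). Wild-type replicate 1 was highest for *mtrfr*, a factor that rescues stalled mitoribosomes (303, the others 234 to 256), and for *mt-co3*, a subunit of cytochrome c oxidase (492995, the others 244494 to 337627).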

How the results depend on the processing

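*mrpl9*, *mrps12* and *mrps21* passed under all 12 alternatives, and no named gene that passed with or without an alternative changed sign under it. At equal totals the members' median turned above 0. Of the values of single genes, 537 kept their side of the threshold, 31 lost it and 20 crossed it. Equal totals gave 8 members higher and 1 lower, 3023 and 1312 of all genes, a members' median log2 fold change of 0.0505, and 8 assembly factors, 5 synthetases, 4 biogenesis regulators, 2 respiratory chain genes and 1 cytosolic ribosomal protein gene. The replicate numbers 1 to 5 occur in both genotypes. Over all genes tested, the correlations of same-numbered libraries ran from -0.15 to 0.08, and no same-numbered pair was the best match for both of its libraries. A single gene can still follow the number, as *ciarta* did in both genotypes. The replicate block, on these 10 libraries, called 2 members higher and 3 lower, without *mrpl10*, *mrpl33* and *mrpl40* (965 genes higher in all), as many members as the same libraries without it, 5, and 2324 of all genes against 3031. With the block 0 further mitoribosome proteins, 0 translation factors, 1 synthetase, 0 genes of mitochondrial DNA maintenance, 2 regulators, 5 respiratory chain and 31 cytosolic ribosomal protein genes passed. Without wild-type replicate 1, 0 further mitoribosome proteins, 4 respiratory chain and 3 cytosolic ribosomal protein genes passed. With no filter, 1 translation factor and 3 cytosolic ribosomal protein genes passed, and with a mean of at least 100, 4 synthetases. limma without trend called 4 synthetases, 4 respiratory chain and 2 cytosolic ribosomal protein genes, and DESeq2 4 synthetases, 2 regulators, 1 gene of the mitochondrial genome and 22 cytosolic ribosomal protein genes. Upper-quartile scaling called 8 cytosolic ribosomal protein genes. The cause of these changes was not tested. With 6 libraries per genotype, 15 of the 67 members that did not pass had intervals past 1.25-fold.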
